A study of Mus musculus with 2 samples.

Results

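The genes described here are 10 known markers of universal, adventitial and mesenchymal fibroblasts, Pi16, Dpp4, Dpt, Ly6a, Cd34, Clec3b, Mfap5, Gsn, Cd248 and Prrx1. They were found by symbol among 52636 genes, and each symbol matched 1 gene in both tables. The series holds 1 RNA-seq library labelled miR-29a KO, from C57BL/6 mice that lack the microRNA miR-29a, and 1 library labelled WT, from wild-type C57BL/6 mice. Both are labelled retina at 8 weeks of age, and each pooled the retinas of 3 mice. The labels give no treatment, no sex and no details of the deleted allele. With 1 library per genotype there were no replicates, so every difference below compares these libraries, called the KO and WT libraries after their labels, and carries no p-value.

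Fibroblasts make and remodel the collagen-rich matrix of connective tissue. In mouse tissues a population that occurs across many organs, often in the outer coat of vessels, expresses Pi16 and Dpt and is thought to be able to give rise to more specialised fibroblasts. In the eye, fibroblasts are found in coats and sheaths around the retina and along larger vessels, while the neural retina itself holds few. miR-29 microRNAs are known as repressors of collagen and other matrix genes in fibroblasts.

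The KO library held 24876925 counts and the WT library 26805902. The labelled tissue was checked on 15 genes that mark retinal neurons, Mueller glia and pigment epithelium. They summed to 0.764 CPM (counts relative to the library total, on a common scale) in the KO library and 1.27 CPM in the WT library, and 9 of them, among them the rod transcription factor gene Nrl, were at 0 in both. These markers go against the retina label. A list of 16 general fibroblast genes summed to 14594 CPM in the KO library and 12364 CPM in the WT library. The microRNA genes Mir29a and Mir29b-1 had 0 counts in both libraries, which checks neither genotype since such libraries seldom count a precursor this short. Xist, expressed from the inactive X chromosome of females, had 0 counts in the KO library and 4288 in the WT library, so a difference in the sex of the pooled mice and the genotype cannot be told apart.

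The deleted microRNA pairs with target transcripts through its seed, bases 2 to 8. The mature microRNAs of the family share it, so the KO library could still hold miR-29b and miR-29c. They are shown 5′ to 3′ from RefSeq (GRCm38.p6) with the seed in capitals; miR-29a-3p lies on the minus strand at chr6:31062673-31062694.
miR-29a-3p: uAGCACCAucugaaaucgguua
miR-29b-3p: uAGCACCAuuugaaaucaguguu
miR-29c-3p: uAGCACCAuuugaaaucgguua

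The longest annotated 3′ UTR of each of the 10 genes (GENCODE M21, GRCm38) was searched on the transcript strand for TGGTGCT, the reverse complement of the seed. It was found in 2 genes, in 3 places, and not in the other 8. Mfap5 held it at UTR positions 144 and 367 of 859, and Prrx1 at position 3645 of 4891, counted from the first base after the stop codon. The sites are shown with 11 bases on either side and the match in capitals. The first Mfap5 site lies at chr6:122528564-122528592 and the second at chr6:122528787-122528815, both on the plus strand, and the Prrx1 site at chr1:163254095-163254123 on the minus strand.
Mfap5 first site: ctaattttcacTGGTGCTggtaacgtttg
Mfap5 second site: ttttttttaaaTGGTGCTatgaattgatc
Prrx1 site: ggtcttggtcaTGGTGCTgctgacatctg
Of the 3 sites only the second Mfap5 site was followed by an A, the base that extends a 7-base match to an 8-base one. The heptamer occurred in the 3′ UTR of 16.1% of the protein-coding genes searched that passed a minimum of 50 counts in the higher library. A match describes the letters and was not tested as a site of regulation.

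Both genes with a seed match differed little between the libraries. Mfap5 encodes a microfibril-associated glycoprotein that binds fibrillin. It had 671 counts in the KO library and 777 counts in the WT library. The ratio of CPM was 0.931, with a 95% exact (Clopper-Pearson) counting interval of 0.838 to 1.03 that includes 1, so no difference was detectable at this depth. Such intervals, used throughout, cover counting error only.

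Prrx1 encodes a homeodomain transcription factor of limb and craniofacial mesenchyme. It had 11730 counts (472 CPM) in the KO library and 10665 counts (398 CPM) in the WT library. The ratio was 1.19 (1.15 to 1.22), a log2 ratio of 0.24 after 0.5 was added to each CPM, as in all log2 ratios below unless said otherwise. A correction for the GC content and length of transcripts brought Prrx1 to -0.08, so its direction depends on that choice. The median log2 ratio was 0.14 over 1860 genes with the heptamer and 0.05 over 9725 genes without it, and the corrected medians were 0.046 with it and -0.0041 without it.

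**Figure D1:**
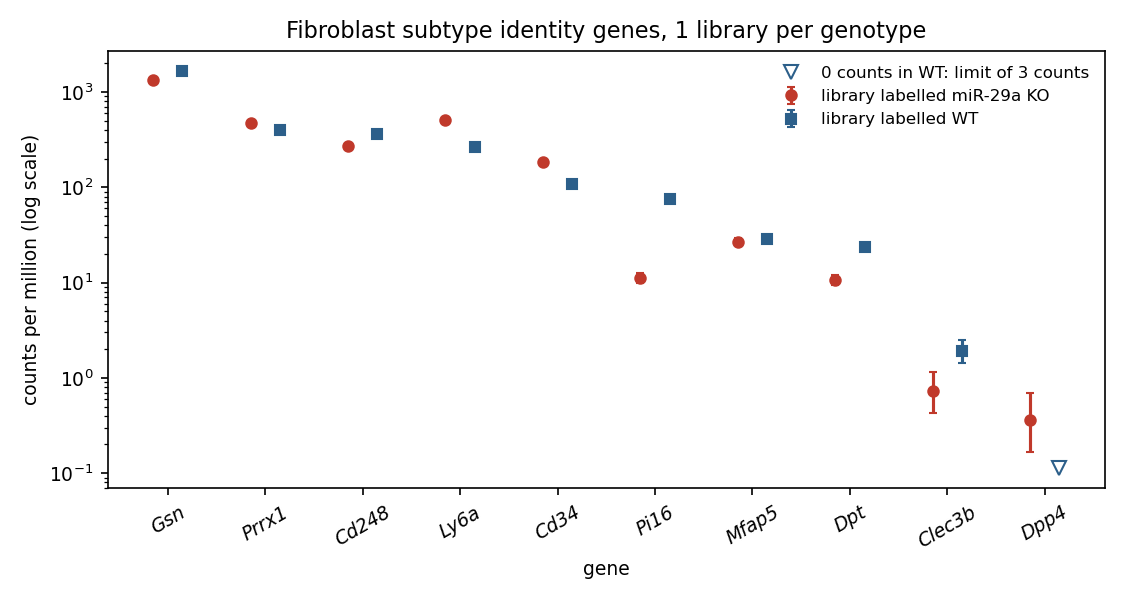
CPM (log axis) of the 10 genes in the library labelled miR-29a KO (circles, left of each pair) and the WT library (squares). Bars are 95% exact Poisson counting intervals, and the open triangle is the limit of 3 counts taken for Dpp4, at 0 counts in the WT library. Pi16 shows the widest gap among the genes counted in both libraries, at 11.2 CPM in the KO library against 74.7 CPM in the WT library, while for each of Gsn, Prrx1, Cd248 and Mfap5 the points of the KO and WT libraries lie close to each other.

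Of the 10 genes, 9 had 50 or more counts in the higher library, and Dpp4 did not. Of these 9, 2 were at least 2-fold lower in the KO library (log2 ratio -1 or less), against 2.82% of all 12382 genes past the minimum. None of the 9 was higher by 2-fold, against 4.47% of all genes. The median log2 ratio of the 9 was -0.30 and that of all genes 0.06; 3 of the 9 lay above 0 and 6 below. The genes did not move as a block: their log2 ratios ran from -2.68 to 0.94, and the median stands for few of them.

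The 2 lower genes were Pi16 and Dpt, the genes by which the universal fibroblast state is best known. Pi16 encodes a secreted peptidase inhibitor of the CAP family and marks fibroblasts of the adventitia. It had 279 counts (11.2 CPM) in the KO library and 2003 counts (74.7 CPM) in the WT library. It was 6.66-fold lower in the KO library (5.88 to 7.58), and its log2 ratio of -2.68 was the 22nd lowest of all 12382 genes. In the order of all detected genes, Pi16 stood within the top 44.2% in the KO library and the top 13.4% in the WT library.

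Dpt encodes dermatopontin, a small matrix protein that binds decorin and promotes collagen fibril assembly. It had 265 counts (10.7 CPM) in the KO library and 627 counts (23.4 CPM) in the WT library. It was 2.20-fold lower in the KO library (1.90 to 2.54), a log2 ratio of -1.10, and the near end of that interval falls short of 2-fold. Corrected for GC content and length, both genes stayed beyond 2-fold, at -2.57 for Pi16 and -1.25 for Dpt.

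Clec3b encodes tetranectin, a secreted lectin that binds plasminogen. It had 18 counts (0.724 CPM) in the KO library and 51 counts (1.90 CPM) in the WT library, just over the minimum. The ratio of CPM with no addition was 2.63-fold lower in the KO library, with a wide interval of 1.51 to 4.78, and the log2 ratio of -0.97 fell just short of the threshold. Clec3b was at the edge of detection in both libraries, although it usually accompanies Pi16.

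Dpp4 encodes a surface protease that trims chemokines and incretin hormones and marks progenitor fibroblasts in skin and fat. It had 9 counts (0.362 CPM, interval 0.165 to 0.687) in the KO library and 0 counts in the WT library. A count of 0 allows up to 3 counts, or 0.112 CPM, so on that limit Dpp4 was at least 3.23-fold higher in the KO library if its 9 counts are taken without error. At the low end of the KO interval the fold was 1.48. Dpp4 is also known on T cells and other leukocytes. The T cell genes Cd3e and Cd8a had 0 counts in both libraries, whereas Cd4, a gene of helper T cells and some macrophages, had 221 counts in the KO library and 53 in the WT library. The leukocyte gene Ptprc had 103 counts in the KO library and 16 in the WT library. The part of leukocytes in the Dpp4 counts was not tested. The relatives Dpp8 and Dpp9 encode cytoplasmic dipeptidyl peptidases. They had 61.1 and 64.2 CPM in the KO library and 45.5 and 69.1 CPM in the WT library. Fap, the closest relative of Dpp4 and an activated fibroblast protease, had 68 counts in the KO library and 150 in the WT library, a log2 ratio of -0.91 (-1.21 when corrected for GC content and length).

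The surface antigens Ly6a and Cd34 stood on the other side. Ly6a encodes Sca-1, a lipid-anchored protein of progenitor cells that interferons are known to induce. It had 12704 counts (511 CPM) in the KO library and 7149 counts (267 CPM) in the WT library. It was 1.91-fold higher in the KO library (1.86 to 1.97), and its log2 ratio of 0.94 exceeded that of 94.8% of all genes without reaching 2-fold. The neighbouring family member Ly6c1 had a log2 ratio of 0.88 (1267 counts in the KO library and 736 in the WT library). Ly6e, a widely expressed and likewise interferon-induced member, had 411 CPM in the KO library and 1043 CPM in the WT library, 2.54-fold lower (2.48 to 2.60). The Ly6 genes therefore did not share a direction. Ly6a and Ly6c1 are similar in sequence, and how the authors assigned reads that fit both is not given in the sources used here, so their values are uncertain to that extent.

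Cd34 encodes a sialomucin of fibroblasts, endothelial cells and blood progenitors. It had 4565 counts (184 CPM) in the KO library and 2887 counts (108 CPM) in the WT library. It was 1.70-fold higher in the KO library (1.63 to 1.79), a log2 ratio of 0.77, which the GC and length correction reduced to 0.43. Podxl, another member of the CD34 family, was 3.53-fold higher (2.41 to 5.28), with 118 counts in the KO library and 36 in the WT library.

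Other cell types are known to express Ly6a and Cd34, and most of the measured markers of endothelial and blood cells were higher in the KO library. Of 12 endothelial genes 10 passed the minimum, of which 5 were higher by 2-fold and 0 lower, and the list median was 1.08. The other side held 2 of the 10, Egfl7 (295 counts in the KO library and 463 in the WT library, log2 ratio -0.52) and Emcn (-0.25). The endothelial list summed to 72.0 CPM in the KO library and 48.0 CPM in the WT library. Of 14 blood cell and macrophage genes 8 passed the minimum and all 8 were higher by 2-fold, led in counts by the macrophage genes Lyz2 and C1qa. That list summed to 1204 CPM in the KO library and 314 CPM in the WT library, mostly from Lyz2. Kit, which marks blood progenitors, had 13 counts in the KO library and 15 in the WT library, and Cd3e, Cd8a, Gata1 and Mpo were at 0 in both. The part of endothelial and blood cells in the Ly6a and Cd34 values was not tested. In pooled tissue, fewer cells of a type and less RNA per cell cannot be told apart.

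**Figure D2:**
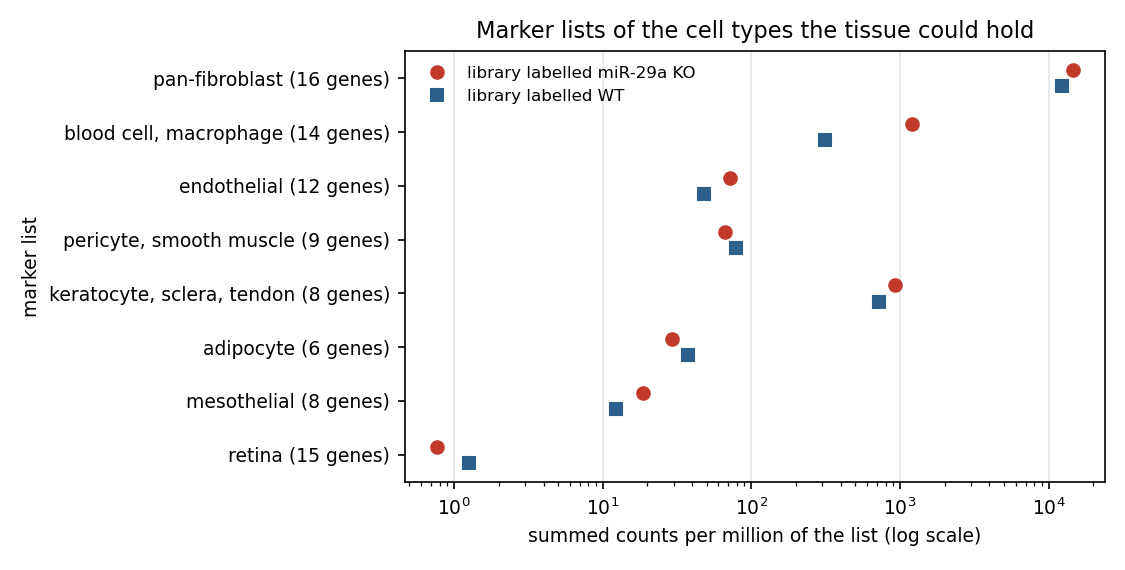
Summed CPM (log axis) of marker lists, with the library labelled miR-29a KO as circles above and the WT library as squares below in each row. Fibroblast genes sum to 14594 CPM in the KO library and retinal genes to 0.764 CPM; the widest gap is in the blood cell and macrophage list, at 1204 CPM in the KO library and 314 CPM in the WT library.

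Gsn and Cd248, both abundant, were slightly lower in the KO library. Gsn encodes gelsolin, which severs and caps actin filaments, and its transcripts include secreted and cytoplasmic forms that a gene count does not separate. It had 33523 counts (1348 CPM) in the KO library and 44554 counts (1662 CPM) in the WT library. It was 1.23-fold lower (1.22 to 1.25), a log2 ratio of -0.30. Gsn was the most counted of the 10 genes and stood in the top 0.353% of detected genes in the KO library and the top 0.315% in the WT library. Capg, a related capping protein gene, had a log2 ratio of -0.19. The gelsolin relative Avil was 2.78-fold lower (2.00 to 3.94), with 48 counts in the KO library and 144 in the WT library. Scin, a further relative, went the other way, with 56 counts in the KO library and 29 in the WT library. Its CPM ratio with no addition was 2.08-fold higher (1.31 to 3.38), but its log2 ratio of 0.80 fell short of 2-fold.

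Cd248 encodes endosialin, a C-type lectin of stromal and perivascular cells. It had 6779 counts (273 CPM) in the KO library and 9716 counts (362 CPM) in the WT library. It was 1.33-fold lower (1.29 to 1.37), a log2 ratio of -0.41. Of the family members, Cd93 was 4.36-fold higher (3.70 to 5.16) and the thrombomodulin gene Thbd 2.08-fold higher (2.02 to 2.14). Clec14a had a log2 ratio of -0.14. Corrected for GC content and length, Thbd came to a log2 ratio of 0.97, short of 2-fold. Cd248 is also known on pericytes. The pericyte and smooth muscle list of 9 genes summed to 66.3 CPM in the KO library and 78.3 CPM in the WT library, with 0 of 5 measured members past 2-fold. Of these 5, 3 lay below 0, Notch3 at -0.74, Abcc9 at -0.37 and Cspg4 at -0.29. The other 2 lay above 0, Mcam at 0.85 and Des at 0.22, and the list median after the GC and length correction was 0.03. Rgs5, a pericyte gene under the minimum, had 41 counts in the KO library and 27 in the WT library. The part of pericytes in the Cd248 value was not tested.

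The differences of these abundant genes changed with the joint correction for GC content and length. Over 12371 genes, which are not independent of each other, Spearman's rho between log2 ratio and the GC content of the transcript was -0.441, and with its length 0.149. Cd248 (61.3% GC) and Gsn (57.1% GC) were then at -0.08 each. Prrx1 (43.6% GC) and Cd34 (42.8% GC) moved down, as given above. Mfap5 came to -0.26 and Ly6a to 0.80. The related genes Prrx2 and Mfap2 had log2 ratios of -0.44 and -0.53 before and -0.10 and -0.17 after it.

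**Figure D3:**
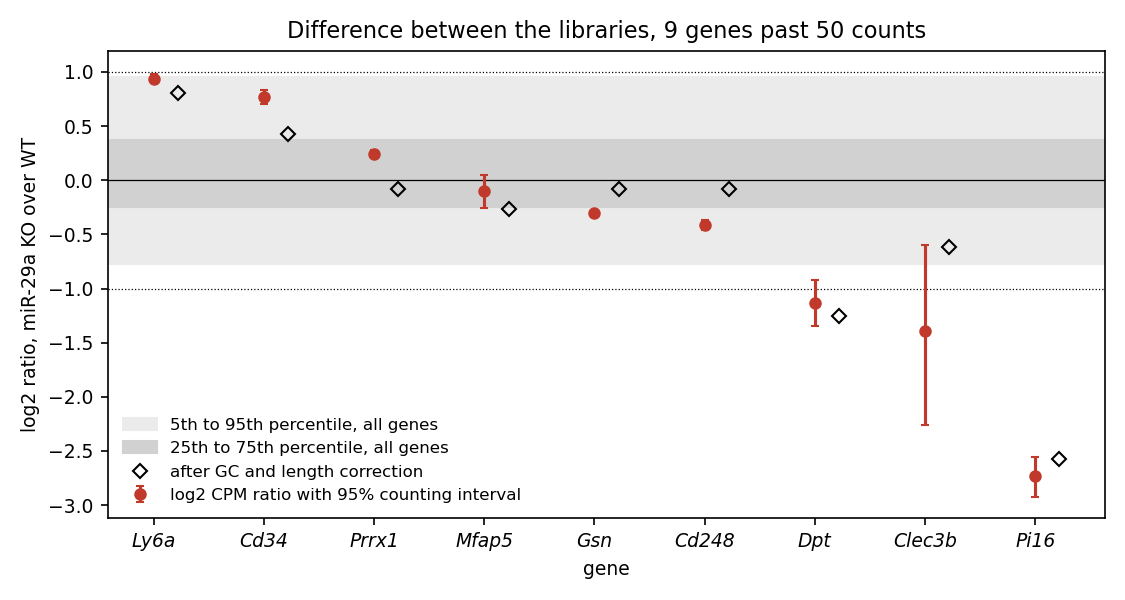
Log2 ratio, miR-29a KO over WT, of the 9 genes past 50 counts: filled circles are CPM ratios with no addition and their 95% counting intervals, and open diamonds are values after 0.5 was added to each CPM and GC content and length were corrected for. Grey bands hold the central parts of all 12382 genes (log2 ratios with 0.5 added) and dotted lines mark 2-fold; Pi16 and Dpt lie beyond 2-fold by either value, and Cd248, Gsn and Prrx1 move to -0.08 after the correction.

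Per length, on the authors' FPKM scale (fragments per kilobase, scaled to library size), Gsn and Ly6a led in both libraries. The gene lengths behind these FPKM values are unknown, and the counting intervals do not cover that choice. In the KO library, Gsn had 434 FPKM (counting interval 430 to 439) and Ly6a 431 FPKM (424 to 439), which were not distinguishable at this depth. In the WT library, Gsn had 557 FPKM (552 to 562) and Ly6a 234 FPKM (229 to 240), which were. Cd248 was next in both, at 108 FPKM in the KO library and 150 FPKM in the WT library, ahead of Prrx1, at 43.4 FPKM in the KO library and 38.0 FPKM in the WT library. Below Prrx1 came Cd34 in the KO library, at 25.6 FPKM, and Pi16 in the WT library, at 19.8 FPKM (19.0 to 20.7). The place of Pi16 above Cd34 in the WT library rests on the FPKM lengths. There Cd34 had the higher CPM, 107.7 against 74.7 for Pi16. Its transcript length in the GC and length correction was also shorter, 3063 bases against 3994 for Pi16.

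On the same FPKM values, the lower end of the order also differed. The order under other gene lengths was not tested, so intervals that meet or overlap below concern counting error only. In the KO library, Mfap5 had 7.65 FPKM (7.08 to 8.25), Dpt 6.29 FPKM (5.55 to 7.09) and Pi16 2.86 FPKM (2.54 to 3.22), and the intervals of Mfap5 and Dpt just met. In the WT library, Cd34 had 15.6 FPKM (15.1 to 16.2), Dpt 14.4 FPKM (13.2 to 15.5) and Mfap5 8.54 FPKM (7.95 to 9.16), and the intervals of Cd34 and Dpt overlapped. Pi16 thus stood below Mfap5 and Dpt in the KO library and above both in the WT library. Clec3b had 0.742 FPKM in the KO library and 2.03 FPKM in the WT library. Dpp4 came last, at 0.0583 FPKM in the KO library, and is listed at 0 in the WT library.

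The sums of the 10 genes were close, with 70543 counts or 0.284% of the KO library and 78429 counts or 0.293% of the WT library. Their make-up differed. Ly6a gave 18.0% of that sum in the KO library and 9.12% in the WT library, and Pi16 gave 0.396% in the KO library and 2.55% in the WT library. Ratios of counts between genes within a library do not depend on how libraries are scaled. The ratios below were not corrected for GC content and length. For 2 pairs chosen after the values were seen, there were 45.5 Ly6a counts per Pi16 count in the KO library (40.4 to 51.5) and 3.57 in the WT library (3.40 to 3.75), and 17.2 Cd34 counts per Dpt count in the KO library (15.2 to 19.6) and 4.60 in the WT library (4.22 to 5.03).

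The wider universal fibroblast programme also lay on both sides. Of 22 further genes of this programme 18 passed the minimum, with 3 higher by 2-fold, 3 lower, 12 neither and a list median of 0.26 on the log2 scale. The lower genes were Mfap4, a microfibril glycoprotein gene (7.12-fold, 4.97 to 10.5), the fibril-associated collagen gene Col14a1 (3.62-fold, 3.29 to 3.98) and Dact2 (2.25-fold, 1.76 to 2.89). The higher genes were the complement inhibitor gene Cd55 (3.16-fold, 2.47 to 4.08), the secreted guidance gene Sema3c (2.84-fold, 2.60 to 3.10) and the annexin gene Anxa3 (2.44-fold, 2.29 to 2.59). With the GC and length correction Dact2 came to -0.78, and the other 5 stayed beyond 2-fold.

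Several genes of this list were abundant and passed 2-fold in neither direction. Efemp1, which encodes fibulin-3, had 1661 CPM in the KO library and 1138 CPM in the WT library. Igfbp6, an insulin-like growth factor binding protein gene, had 866 CPM in the KO library and 1685 CPM in the WT library, a log2 ratio of -0.96. The alarmin gene Il33, at 0.98, and the hyaluronan synthase gene Has1, at 0.96, fell just short of the threshold on the other side. Corrected for GC content and length, Igfbp6 came to -0.60, Il33 to 0.67 and Has1 to 0.73. Fbn1, the fibrillin gene whose product Mfap5 binds, had a log2 ratio of 0.22 and 2 heptamers in its 3′ UTR. Among the members and the further universal, specialised and general fibroblast genes with the heptamer, Anxa3 was the single gene past 2-fold. Over all 1860 genes with the heptamer, 3.98% were higher by 2-fold and 1.24% lower. Over the 9725 genes without it, 4.53% were higher and 2.71% lower. The list of activated fibroblast genes was not searched for the heptamer. The collagen genes Col3a1 and Col1a1, which also hold it, had log2 ratios of 0.37 and -0.29.

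**Figure D4:**
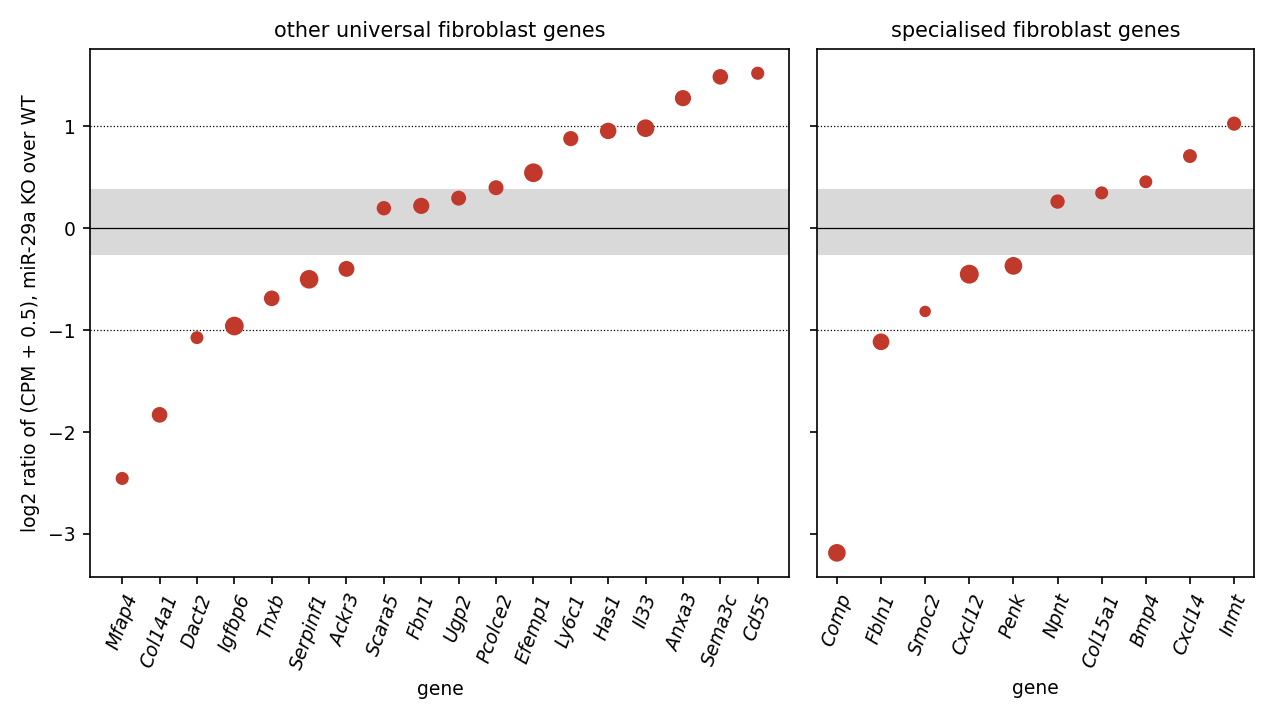
Log2 ratio of (CPM + 0.5), miR-29a KO over WT, of the 18 other universal fibroblast genes (left) and the 10 specialised fibroblast genes (right) past 50 counts, from lowest to highest; larger points stand for higher CPM, grey bands hold the 25th to 75th percentile of all genes and dotted lines mark 2-fold. The left panel has 3 genes beyond 2-fold on each side, and in the right panel Comp lies lowest at -3.19.

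Markers of specialised fibroblasts lay on both sides as well. Of 13 such genes 10 passed the minimum, with 1 higher by 2-fold, 2 lower, 7 neither and a list median of -0.05. Comp, a cartilage and tendon matrix gene, was 9.17-fold lower (8.69 to 9.68) and the fibulin gene Fbln1 2.17-fold lower (2.07 to 2.28), while the methyltransferase gene Inmt was 2.09-fold higher (1.80 to 2.42). Col15a1, a basement membrane collagen gene of a fibroblast state distinct from that of Pi16, had 230 counts in the KO library and 192 in the WT library, a log2 ratio of 0.35. The chemokine gene Cxcl12 had 1544 CPM in the KO library and 2111 CPM in the WT library, and Ccl19, a marker of lymphoid stroma, had 0 counts in both. Smoc2, at -0.82, came to -1.01 when corrected for GC content and length.

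The general fibroblast genes were mostly abundant in both libraries. Of 16 listed, 15 passed the minimum, with 1 higher by 2-fold (Pdpn, at 1.04), 0 lower and a list median of 0.37, beside 4.47% higher and 2.82% lower over all genes. Corrected for GC content and length, the median was 0.19 and 1 gene, Fap, was lower by 2-fold. The 1 higher gene was then Thy1, at 1.15, while Pdpn came to 0.89, short of 2-fold. Col1a2 had 2648 CPM in the KO library and 2757 CPM in the WT library, and Vim, which encodes the intermediate filament vimentin, 4381 CPM in the KO library and 3677 CPM in the WT library. Tcf21, a transcription factor gene of visceral fibroblasts, had 0 counts in both libraries, whereas Prrx1 and Twist1 of limb and head mesenchyme were well expressed, with Twist1 at 135 CPM in the KO library and 166 CPM in the WT library.

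Each gene had its own place in the genome (GRCm38), and those on 1 chromosome did not share a direction. Pi16 lies at chr17:29317680-29330593, Dpt at chr1:164796644-164824266, Prrx1 at chr1:163245119-163313710 and Cd34 at chr1:194938819-194961279. Dpt, Prrx1 and Cd34 had log2 ratios of -1.10, 0.24 and 0.77. Gsn lies at chr2:35256380-35307892 and Dpp4 at chr2:62330073-62412231. Mfap5 is at chr6:122505845-122529290, Clec3b at chr9:123150946-123157432, Ly6a at chr15:74994877-74998031 and Cd248 at chr19:5068078-5070682. The library kit does not mark strand, so reads of overlapping antisense genes cannot be told apart from these genes. The antisense gene Gm16897 over Cd34 had 10 counts in the KO library and 11 in the WT library, and those over Dpt, Dpp4 and Prrx1 had at most 1. The annotation also has an antisense gene inside Pi16, AC162182.1, which was not analysed here.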

How the data were processed

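Per the labels' protocols, ribosomal RNA was removed from total RNA of pooled retinas (3 mice per library) and a NEBNext Ultra RNA kit, which keeps no strand information, gave the Illumina libraries. HISAT2 and mm10 (GRCm38) are named in the submitters' processing notes; how reads were counted, on which annotation release and strand, and how FPKM was scaled is not given in the sources used here. Per the file headers, each deposited table lists raw read counts and FPKM by gene. The authors' counts were the main measurement; the authors' FPKM values served for levels per length and as an alternative.

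CPM used the total of counts per library. Genes needed at least 50 counts in the higher library, and 2-fold was called on log2 of (CPM + 0.5). Left out were 4 genes whose count per FPKM disagreed between libraries by over 1%. FPKM of the KO library was scaled by 1.04 relative to WT per count, and CPM by 1.08. Of 52636 identifiers 52403 were in GENCODE M21. Intervals are 95% exact. The correction subtracted medians over 10 bins of transcript GC content, then 10 of length. Tests on replicates were not possible with 1 library per group. The calculation was tested on simulated counts with Poisson counting error only. These held no differences between animals and no effect of GC content, so the test does not cover either.

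The members and the 12 comparison lists (further universal, specialised, general and activated fibroblast genes, relatives of the members, and endothelial, blood cell, pericyte and smooth muscle, mesothelial, keratocyte and sclera, adipocyte and retina markers) were chosen with earlier results of these data known. Named were all members, the genes of the first, second and relatives' lists past the minimum that differed or were counted most, and the most counted or absent markers of the others; further names were chosen after their values were seen. Alternatives covered scaling (edgeR's TMM, median of ratios, a trimmed total), pseudocount, minimum, FPKM, composition and threshold. Software was edgeR 4.0.16 in R 4.3.3, and Python 3.11.15 with scipy 1.17.1, pandas 2.3.3, numpy 2.4.6 and matplotlib 3.10.9.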

Additional observations from a re-analysis of the deposited data

How the results depend on the processing

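Pi16, Dpt, Ly6a, Cd34, Cd248, Gsn, Mfap5 and Clec3b kept their direction under each alternative that gave a value, and Pi16 ran from -2.75 to -2.54 and Dpt from -1.25 to -1.005. Prrx1 changed sign, to -0.085, with the GC and length correction and under no other alternative; the cause was not tested. Clec3b passed 2-fold, making 3 lower members, with median-of-ratios scaling, the trimmed total, a pseudocount of 0.1 CPM and FPKM, and came to -0.52 with a pseudocount of 2 CPM and -0.62 with the GC and length correction. At 1.5-fold 2 members were higher (Ly6a and Cd34), and at 4-fold 1 was lower (Pi16). The median log2 ratio of the members was -0.33 with TMM, -0.37 with median-of-ratios scaling, -0.36 with FPKM and -0.20 with a minimum of 200 counts or none, which changes the members counted, and -0.085 with the GC and length correction. Among all genes, those higher by 2-fold numbered 351 with a pseudocount of 2 CPM, 340 with a minimum of 200 counts and 322 with FPKM, and those lower 214 with the pseudocount and 213 with that minimum. At 1.5-fold 1645 were higher and 1100 lower, and at 4-fold 103 and 58. No scaling moved the median of all genes by over 0.1. No paired analysis was possible because each group had 1 library. Depth limits Clec3b and Dpp4, whose counts are few.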

Other observations

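Genes of activated fibroblasts were mixed. Of 11 listed 10 passed the minimum, with 1 higher by 2-fold in the KO library, 1 lower and a list median of -0.01 on the log2 scale. Cxcl5, which encodes a neutrophil-attracting chemokine, was 2.26-fold higher (2.22 to 2.30), with 1877 CPM in the KO library and 830 CPM in the WT library. Corrected for GC content and length, its log2 ratio was 0.88, short of 2-fold. Postn, which encodes periostin, was 2.12-fold lower (2.00 to 2.25). The contractile gene Acta2 had a log2 ratio of 0.69, and Tagln, which often accompanies it, had 29 counts in the KO library and 38 in the WT library.

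Of 9 keratocyte, sclera and tendon genes 8 were found by symbol and 6 passed the minimum, and 1 was lower by 2-fold, the thrombospondin gene Thbs4 (log2 ratio -2.14). Corrected for GC content and length, 3 were lower by 2-fold, Thbs4 at -2.03, the osteoglycin gene Ogn at -1.13 and the tenomodulin gene Tnmd at -1.06. Aldh3a1, an abundant corneal enzyme gene, had 772 CPM in the KO library and 476 CPM in the WT library, while Kera, which encodes the corneal proteoglycan keratocan, had 1 count in each. Of 6 adipocyte genes 4 were measured and 0 passed 2-fold, with a median of -0.51. Of 8 mesothelial genes 2 were measured, Msln at 1.06 and Krt19 at -1.55, and Wt1 and Upk3b were at 0 in both libraries.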
